A study of Vitis vinifera with 12 samples.

Results

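The sugar transporters of the grape berry were followed as a list of 10 identifiers, of which 8 have a row among the 22580 gene models of the expression table. They are the hexose transporters HT1 (VIT_00s0181g00010), HT2 (VIT_18s0001g05570), HT3 (VIT_11s0149g00050) and HT5 (VIT_05s0020g03140), and the tonoplast transporters HT6 (VIT_18s0122g00850) and TMT1 (VIT_03s0038g03940). They also include the sucrose carrier SUC27 (VIT_18s0076g00250) and the sugar facilitator SWEET10 (VIT_17s0000g00830). The sucrose carriers SUC11 (VIT_18s0001g08210) and SUC12 (VIT_01s0026g01960) were not analysed here. The members were chosen by identifier, and the names are those given with that list, since the table itself holds identifiers only. The RNA came from fruit of the table grape cultivar Flame Seedless at 40, 50, 60 and 80 days after full bloom, with 3 libraries (a, b and c) at each age and no treatment named in the labels. A second cultivar that the series title mentions was not analysed here. The labels do not say which of these ages preceded the onset of ripening. They state that RNA of the replicates was extracted separately and then pooled, so the spread between libraries may be technical. With identifiers alone, the fruit label could not be checked against marker genes.

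In a ripening berry, sucrose arrives through the phloem and is in large part cleaved to glucose and fructose, which collect in the vacuoles of the flesh. Carriers of the hexose transporter (HT) family move hexoses across the plasma membrane together with protons, and tonoplast transporters such as HT6 and TMT1 load them into the vacuole. SUC carriers move sucrose with protons, while SWEET proteins let sugars pass down their gradient in either direction.

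Each of the 7 transporters that could be tested had its highest mean at 40 days, and most of them were lower at each later age. The means of HT2 at 40 and 50 days were nearly equal (146 and 144 FPKM). HT1 could be tested only through its libraries of 40 and 50 days, the ages at which it was highest. The share of all gene models with their highest mean at 40 days was not computed. Between 40 and 80 days HT3, SWEET10 and HT6 fell by 3.14, 2.63 and 2.25 on the log2 scale. The weakly expressed HT1 and SUC27 fell by less on this scale, which compresses low values. The calls of both were lost when certain single libraries were left out. As a share of its 40-day mean, HT1 came to 16.4% and SUC27 to 37.6%. HT3 came to 8.90%, SWEET10 to 16.5% and HT6 to 21.2%. HT2 and TMT1 were also lower at 80 days, but by less than 1 on the log2 scale. Levels are given in FPKM (sequenced fragments per length of gene model and per depth of the library), which allows genes of different length to be set side by side. Differences are later minus earlier age on log2(FPKM + 1). A difference was called, and is written as a rise or fall, at a limma adjusted p under 0.05 together with a size of at least 1. Gene models with at least 1 FPKM in at least 3 libraries were tested, and p-values were adjusted over all of them. In whole berries, a lower value can mean fewer cells of a type or less RNA of the gene per cell. As FPKM is relative to the depth of the library, it can also mean more RNA of other genes. These cannot be told apart.

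**Figure D1:**
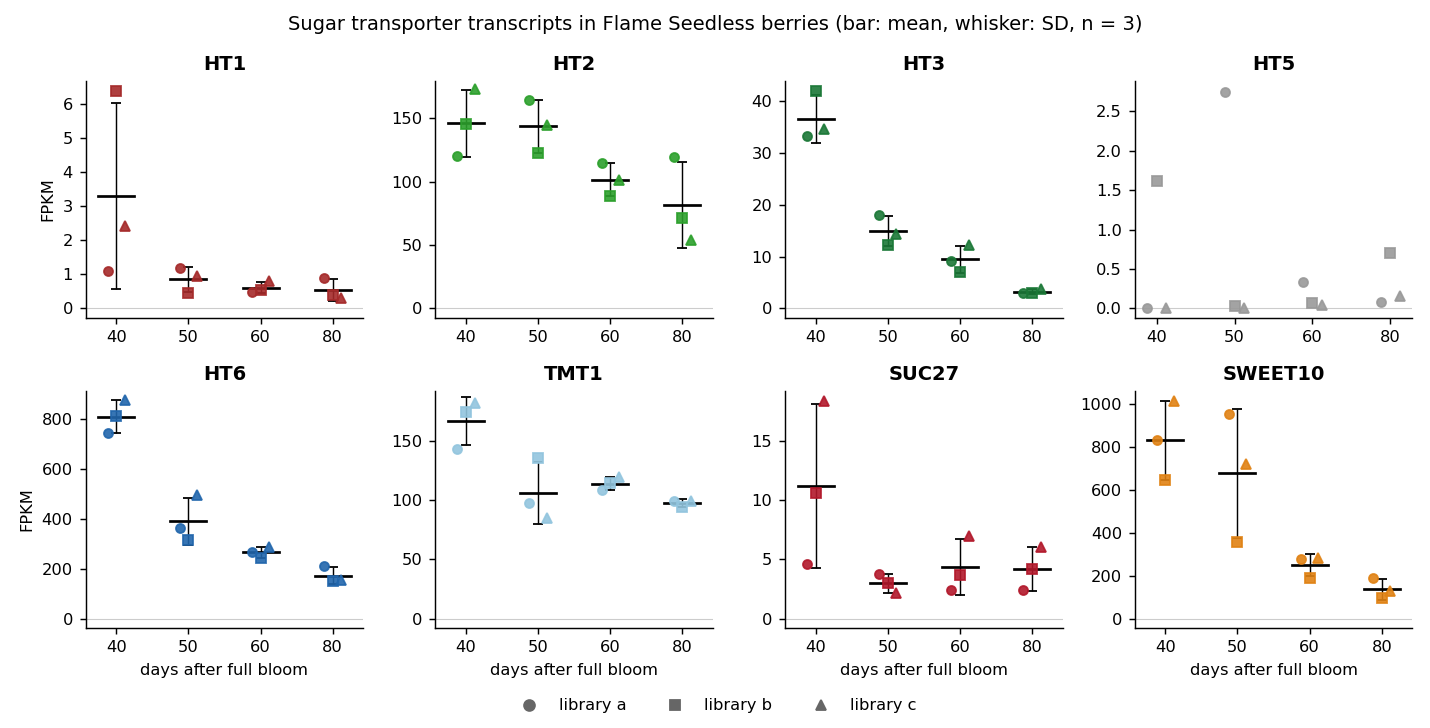
FPKM of the 8 transporters in each library by age in days after full bloom. Points are libraries a, b and c, bars are means and whiskers are SD (n = 3), which are left out for HT5, listed at 0 in 3 libraries. HT6, HT3 and SWEET10 step down towards 80 days, whereas TMT1 lies between 85.0 and 135 FPKM from 50 days on.

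Of the plasma membrane hexose transporters, HT2 was the most abundant at every age. HT2, a member of the hexose transporter family, had 120.0, 145 and 173 FPKM in libraries a, b and c at 40 days and 164, 122 and 144 FPKM at 50 days. It had 114, 88.9 and 101 FPKM at 60 days and 119, 71.5 and 53.6 FPKM at 80 days. The libraries of 40 and 50 days overlapped almost entirely, whereas every 80-day library lay below every 40-day library. HT2 at 80 days stood at 55.7% of its 40-day mean, and its log2 difference was -0.90 ± 0.25 (SE; adjusted p = 0.00833 by limma). This is under the minimum difference of 1, and the 95% interval of -1.44 to -0.36 includes it. The highest 80-day value, that of library a, was nearly equal to the lowest 40-day value. Without that library the difference was -1.21, and without 40-day library a it was -1.03, both of which were called. Without each of the other 40- and 80-day libraries it was not called, and it was smallest, at -0.64, without 80-day library c. The earliest interval contributed almost nothing to this difference, with -0.02 (95% interval -0.56 to 0.52) at 50 against 40 days.

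HT3, another plasma membrane-type member of the family, showed the largest fall of the tested transporters. It had 33.2, 41.9 and 34.6 FPKM at 40 days and 18.0, 12.3 and 14.5 FPKM at 50 days. The 60-day libraries had 9.10, 7.04 and 12.3 FPKM, and the 80-day libraries 2.97, 3.03 and 3.76 FPKM. Each library of 50 days lay below those of 40 days, and each of 80 days below those of 60 days, with overlap only between 50 and 60 days. HT3 fell at 50 against 40 days by 1.25 on the log2 scale (SE 0.19, limma adjusted p = 0.000782) and at 80 against 60 days by 1.27 (SE 0.19, adjusted p = 0.00244). At 60 against 50 days its difference was -0.62 ± 0.19 (limma adjusted p = 0.0472), short of the minimum difference. Over the whole period it came to 8.90% of its 40-day mean (-3.14 ± 0.19, limma adjusted p = 6.11e-07). Leaving out each 40- or 80-day library in turn gave -3.22 to -3.04.

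HT1, a proton-coupled glucose carrier of the plasma membrane, was weakly expressed. Its values were 1.10, 6.38 and 2.43 FPKM at 40 days and 1.18, 0.450 and 0.947 FPKM at 50 days. They were 0.478, 0.552 and 0.795 FPKM at 60 days and 0.897, 0.411 and 0.318 FPKM at 80 days. The 40-day libraries differed among themselves by a factor of 5.78, with library b the highest. At 50 against 40 days the difference was -1.04 ± 0.37 (limma adjusted p = 0.0531), and it was called without 40-day library a (-1.46, limma adjusted p = 0.00757). Without 40-day library b it was -0.55 (limma adjusted p = 0.161). HT1 fell at 80 against 40 days by 1.31 on the log2 scale (SE 0.37, limma adjusted p = 0.0100), where the pseudocount of 1 compresses such low values. Without 40-day library b the difference was -0.82, and with quantile normalization -0.99, both under the minimum. HT1 passed the filter on low values through the 3 libraries of 40 days and 1 of 50 days, the ages at which it was highest.

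HT5, which in grapevine leaves is known for induction upon infection together with a cell wall invertase, did not pass that filter and was not tested. It was listed at 0 in 3 libraries (a and c of 40 days and c of 50 days). The other 40-day library had 1.61 FPKM and the other 50-day libraries had 2.74 and 0.0287 FPKM. Values at 60 days were 0.335, 0.0635 and 0.0427 FPKM, and at 80 days 0.0860, 0.697 and 0.164 FPKM. Single libraries thus held the highest values, with no order by age.

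Within this class the balance moved towards HT2. Of the summed FPKM of the 4 hexose transporters, HT2 held 78.2% ± 3.99 (SD, n = 3) at 40 days, and 89.7% ± 1.29, 90.9% ± 2.05 and 94.7% ± 2.07 at 50, 60 and 80 days. The ratio of HT2 to HT3 within a library was 3.61, 3.47 and 5.001 at 40 days and 9.13, 9.96 and 9.99 at 50 days. It was 12.6, 12.6 and 8.22 in the 60-day libraries, and 40.1, 23.6 and 14.2 in those of 80 days. These shares and ratios describe the chosen members, and no test was run on them.

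HT6, a monosaccharide transporter of the tonoplast, was with SWEET10 one of the 2 most abundant members at every age. It had 744, 812 and 876 FPKM at 40 days and 363, 315 and 496 FPKM at 50 days. It had 267, 243 and 288 FPKM at 60 days and 210.4, 149.9 and 155 FPKM at 80 days. No library of a later age reached any library of an earlier age, so the libraries of all 4 ages were fully separated. HT6 fell at 50 against 40 days by 1.07 on the log2 scale (SE 0.17, limma adjusted p = 0.00110). Without 50-day library b this difference was -0.93 and no longer met the minimum. The later steps were smaller, with -0.53 ± 0.17 at 60 against 50 days (limma adjusted p = 0.0566) and -0.64 ± 0.17 at 80 against 60 days (adjusted p = 0.0240). At 80 against 40 days HT6 fell by 2.25 (SE 0.17, limma adjusted p = 2.19e-06), to 21.2% of its 40-day mean. Among the 22580 gene models, its mean ranked 913 at 80 days, against 116 at 40 days.

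TMT1, the other tonoplast monosaccharide transporter, was called in none of the comparisons. Its values were 143, 174 and 182 FPKM at 40 days and 97.9, 135 and 85.0 FPKM at 50 days. They were 108, 114 and 119 FPKM at 60 days and 99.6, 93.9 and 99.4 FPKM at 80 days. Every later library lay below every 40-day library, and the 60- and 80-day libraries were close to each other. At 50 against 40 days the difference was -0.66 ± 0.15 (limma adjusted p = 0.00626), and at 80 against 40 days it was -0.76 ± 0.15 (adjusted p = 0.00102), both under the minimum difference. The later steps were 0.13 (95% interval -0.20 to 0.45) at 60 against 50 days and -0.22 (-0.54 to 0.10) at 80 against 60 days.

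The ratio of HT6 to TMT1 within a library was 5.19, 4.66 and 4.82 at 40 days and 3.71, 2.32 and 5.84 at 50 days. It was 2.46, 2.13 and 2.42 at 60 days and 2.11, 1.60 and 1.56 at 80 days. Both tonoplast transporters thus came closer in level with age, although the 50-day libraries spread widely. In 50-day library b, HT6 and SWEET10 were the lowest of their age and TMT1 the highest. SWEET10 was lowest in library b at the other ages too, and HT6 at 60 and 80 days. Whether something particular to 50-day library b plays a part in these values was not tested.

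**Figure D2:**
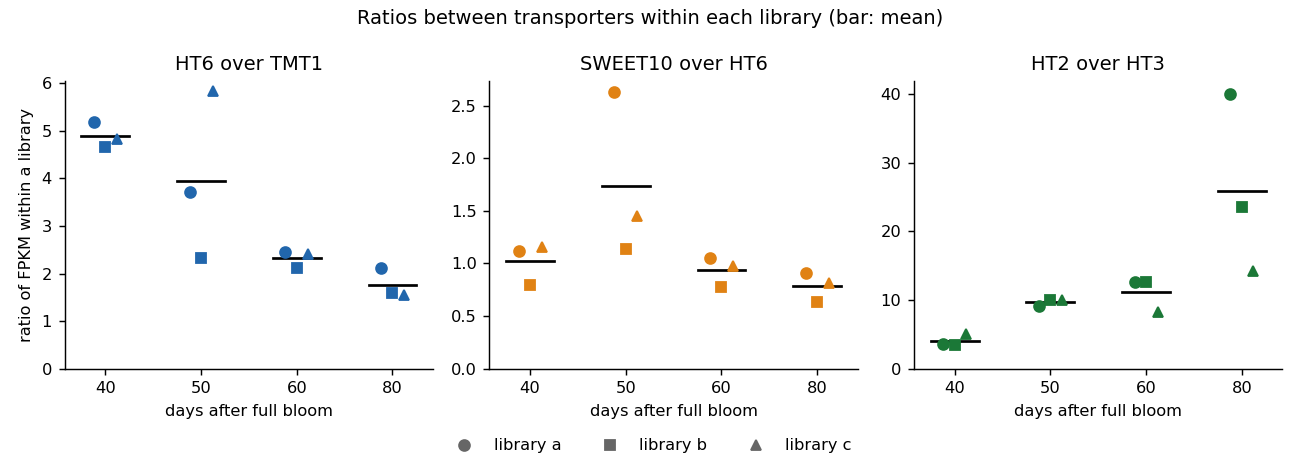
Ratios of FPKM between pairs of transporters within each library, by age in days after full bloom; symbols are libraries a, b and c, and bars are means. HT6 over TMT1 lies between 1.56 and 2.11 at 80 days, against 4.66 to 5.19 at 40 days, and HT2 over HT3 is highest at 80 days with the widest spread.

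SUC27, a plasma membrane sucrose carrier that moves sucrose with protons, was the only sucrose carrier measured. It had 4.61, 10.6 and 18.4 FPKM at 40 days and 3.80, 2.97 and 2.16 FPKM at 50 days. It had 2.38, 3.70 and 6.96 FPKM at 60 days and 2.39, 4.17 and 6.07 FPKM at 80 days. Its 40-day libraries spanned a factor of 3.98, and its lowest 40-day library was below the highest of 60 and of 80 days. SUC27 fell at 50 against 40 days by 1.46 on the log2 scale (SE 0.45, limma adjusted p = 0.0285). At 80 against 40 days the fall was 1.12 (SE 0.45, limma adjusted p = 0.0486). Both calls depended on single libraries. The call at 50 days was lost without 40-day library b or c and without 50-day library b or c (limma adjusted p = 0.0644 to 0.110). The call at 80 days was lost without 40-day library b or c and without 80-day library a or b (limma adjusted p = 0.0868 to 0.194), and under 5 other settings. The difference of 0.36 at 60 against 50 days had a 95% interval of -0.63 to 1.34, and that of -0.01 at 80 against 60 days one of -0.99 to 0.97, so changes of up to about 1 in either direction could not be told from none.

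SWEET10, a member of the SWEET family of sugar facilitators, had the highest mean of the transporters at 40 and 50 days. Its values were 832, 647 and 1014 FPKM at 40 days and 956, 358 and 719 FPKM at 50 days. They were 280.0, 189.8 and 282 FPKM at 60 days and 191, 94.6 and 126 FPKM at 80 days. The first pair of ages overlapped, every 60-day library lay below every 50-day library, and library a of 80 days lay just above library b of 60 days. At 50 against 40 days the difference was -0.38 (95% interval -1.16 to 0.39), and without 50-day library b it was 0.02. SWEET10 fell at 60 against 50 days by 1.34 (SE 0.35, limma adjusted p = 0.0291). This call was lost without 50-day library a or c and without 60-day library a or b (limma adjusted p = 0.0601 to 0.113). It was also lost with no filter on low values (limma adjusted p = 0.0513) and with only the 2 ages fitted (0.0532). At 80 against 60 days the difference was -0.90 ± 0.35 (limma adjusted p = 0.0945). A replicate block by letter lowered the SE of both steps from 0.35 to 0.19. The limma adjusted p was then 0.00559 at 60 against 50 days and 0.0165 at 80 against 60 days. The latter difference stayed under the minimum. Over all gene models, the letters showed no clear pairing. Over the whole period SWEET10 fell by 2.63 (SE 0.35, limma adjusted p = 8.30e-05), to 16.5% of its 40-day mean. With each 40- or 80-day library left out in turn, the difference of SWEET10 was -2.89 to -2.39. Its mean ranked 110, 146, 527 and 1142 among the 22580 gene models at the 4 ages in turn.

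How early this difference arose can be read from its share at each age. Of its log2 difference between 80 and 40 days, TMT1 had covered 87.8% by 50 days and HT1 79.6%, HT6 47.7%, HT3 39.8%, SWEET10 14.6% and HT2 2.03%. These shares moved with single libraries, most of all those of TMT1, HT2 and SWEET10. Over the libraries omitted in turn, that of SWEET10 ran from -0.76% to 26.2% and that of HT2 from -14.4% to 14.6%. That of TMT1 ran from 68.7% to 113%, that of HT1 from 66.7% to 89.1%, that of HT6 from 41.3% to 55.9% and that of HT3 from 35.9% to 44.1%. By 60 days SWEET10 had covered 65.7%, HT2 57.1%, HT3 59.4%, HT6 71.4%, HT1 94.3% and TMT1 70.9%. With libraries omitted in turn, these ran from 58.6% to 72.2% for SWEET10, 42.4% to 80.1% for HT2 and 53.8% to 65.4% for HT3. They ran from 66.8% to 74.3% for HT6, 84.1% to 102% for HT1 and 66.2% to 75.3% for TMT1. The mean of SUC27 was lower at 50 than at 80 days. These shares were not tested against each other.

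**Figure D3:**
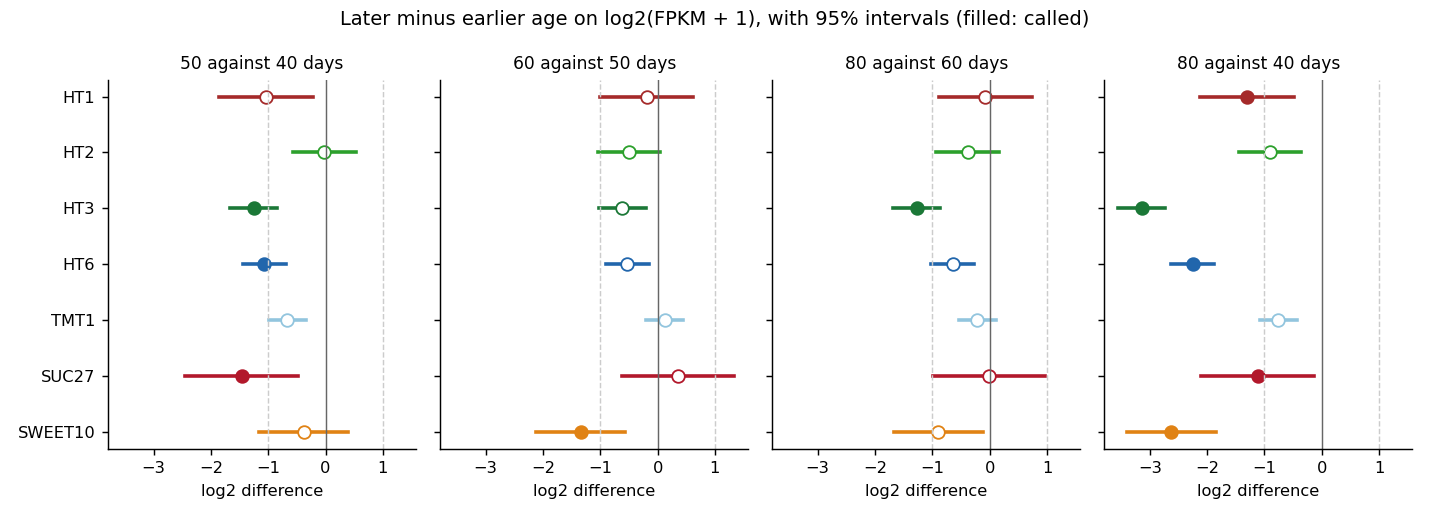
Log2 difference of the 7 tested transporters in the 4 comparisons of ages, later minus earlier, on log2(FPKM + 1). Points are limma estimates, lines their 95% intervals, filled points are called and dashed lines mark a difference of 1. HT3 is called in 3 of the comparisons, while TMT1 and HT2 are called in none, and no point called is above 0.

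Of the 7 tested members, 6 had at least 1 FPKM in every library, and they are counted here. HT1, which passed the filter only through 40- and 50-day libraries, is left out of these counts. The percentages of gene models, here and in the next paragraph, are over all 14579 tested, including those under 1 FPKM in some libraries. Shares among gene models with at least 1 FPKM in every library were not computed. At 80 against 40 days, HT3, HT6, SUC27 and SWEET10 fell, 4 of the 6, where 14.0% of the 14579 gene models tested were called lower. All 6 had a limma adjusted p under 0.05 and a negative difference, where 30.7% of the gene models tested did. In 5 of the 6, all but SUC27, the 80-day libraries lay wholly below the 40-day libraries, against 33.2% of gene models. None was called higher, which 6.95% of gene models were. The median log2 difference was -1.68 over the 6 members and 0.00 over all gene models tested.

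At 50 against 40 days HT3, HT6 and SUC27 fell, 3 of the 6 members, against 5.93% of gene models called lower. The median difference was -0.87 over the 6 members and -0.03 over all gene models. At 60 against 50 days SWEET10 alone was called, 1 of 6, against 2.53% of gene models called lower, and the medians were -0.51 and 0.01. At 80 against 60 days HT3 alone was called, 1 of 6, against 2.08% of gene models, and the medians were -0.51 and 0.01. None of the 6, nor HT1, was called higher in these intervals, where 2.09%, 1.15% and 1.52% of gene models were. A change at any age (limma F test, range of age means of at least 1) was called for HT3, HT6 and SWEET10, 3 of the 6, where 24.3% of gene models were called. The limma adjusted p of SUC27 in this test was 0.0545. HT1 was called in it as well, but not without 40-day library b, 40-day library c or 80-day library c. Nor was HT1 called with quantile normalization or a replicate block by letter, and a filter at a mean of 5 FPKM left it untested. The 3 consecutive comparisons share libraries with each other and with the comparison of 80 and 40 days.

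**Figure D4:**
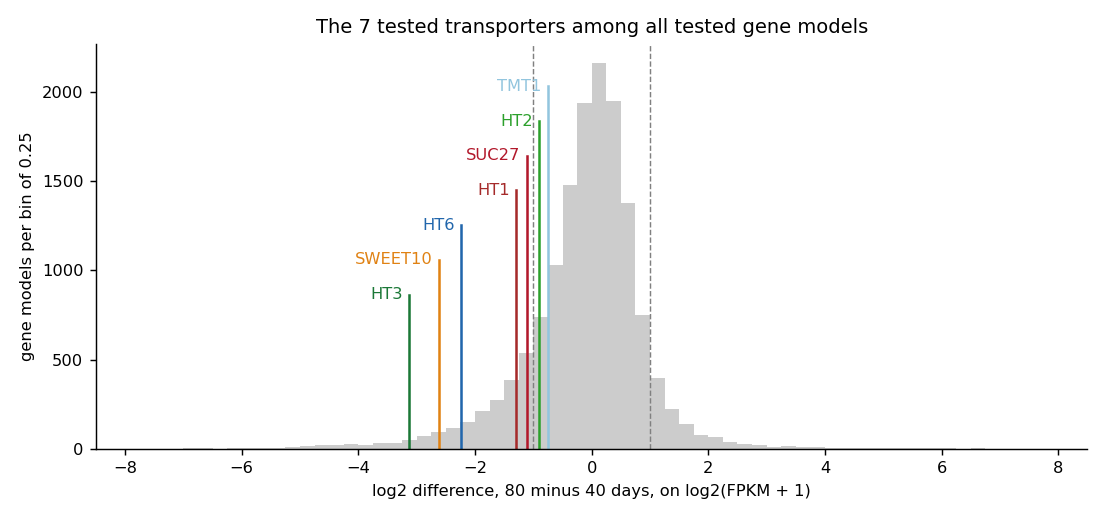
Number of gene models per bin of 0.25 by log2 difference, 80 minus 40 days, over all 14579 tested (grey), with the 7 tested transporters as labelled lines and dashed lines at a difference of 1. All 7 lie below 0, from -3.14 for HT3 to -0.76 for TMT1.

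In order of level at 40 days, SWEET10 (831 ± 183 FPKM, SD, n = 3) and HT6 (810.4 ± 65.9 FPKM) came first, overlapped in their ranges and lay above TMT1 by a factor of 4.87 or more. TMT1 (166 ± 20.2 FPKM) and HT2 (146 ± 26.5 FPKM) overlapped in their ranges as well, though TMT1 was higher in each library. HT3 (36.6 ± 4.65 FPKM) lay below HT2 and above SUC27 (11.2 ± 6.90 FPKM) without overlap, and SUC27, HT1 and HT5 each overlapped the next. At 50 days SWEET10 (677 ± 301 FPKM) and HT6 (391 ± 93.9 FPKM) again overlapped, as did HT2 (144 ± 20.8 FPKM) and TMT1 (106 ± 26.2 FPKM) below them. At 60 days HT6 (266 ± 22.6 FPKM) and SWEET10 (250.5 ± 52.6 FPKM) lay above TMT1 (114 ± 5.48 FPKM) and HT2 (101 ± 12.8 FPKM), each pair overlapping within itself. At 80 days there was no gap between these pairs. HT6 (172 ± 33.6 FPKM), SWEET10 (137 ± 48.9 FPKM), TMT1 (97.6 ± 3.23 FPKM) and HT2 (81.4 ± 33.8 FPKM) each overlapped the next in their ranges. SUC27 (4.21 ± 1.84 FPKM) and HT3 (3.25 ± 0.440 FPKM) followed a factor of 19.3 lower and overlapped each other. SWEET10 came before HT6 by its mean at 40 and 50 days and after it at 60 and 80 days, with overlapping ranges each time. Within a library, SWEET10 was above HT6 in each library of 50 days (ratio 1.14 to 2.63). It was below HT6 in each library of 80 days (0.63 to 0.91). At 40 and 60 days the order differed between libraries.

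Summed over the 8 members, the level was 2005 ± 255 FPKM (SD, n = 3) at 40 days and 1338 ± 347 FPKM at 50 days. It was 746 ± 86.9 and 496 ± 113 FPKM at 60 and 80 days. In 80-day libraries the members made up 0.0427% of all FPKM on average, against 0.195% in 40-day libraries. SWEET10 and HT6 together made up 61.9% ± 3.02 of the sum at 80 days, against 81.8% ± 2.30 at 40 days. TMT1 made up 20.2% ± 3.76 of it at 80 days and 8.33% ± 0.990 at 40 days. HT2 made up 16.1% ± 3.59 at 80 days and 7.27% ± 0.786 at 40 days. These sums rest mainly on the 4 abundant members and were not tested.

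**Figure D5:**
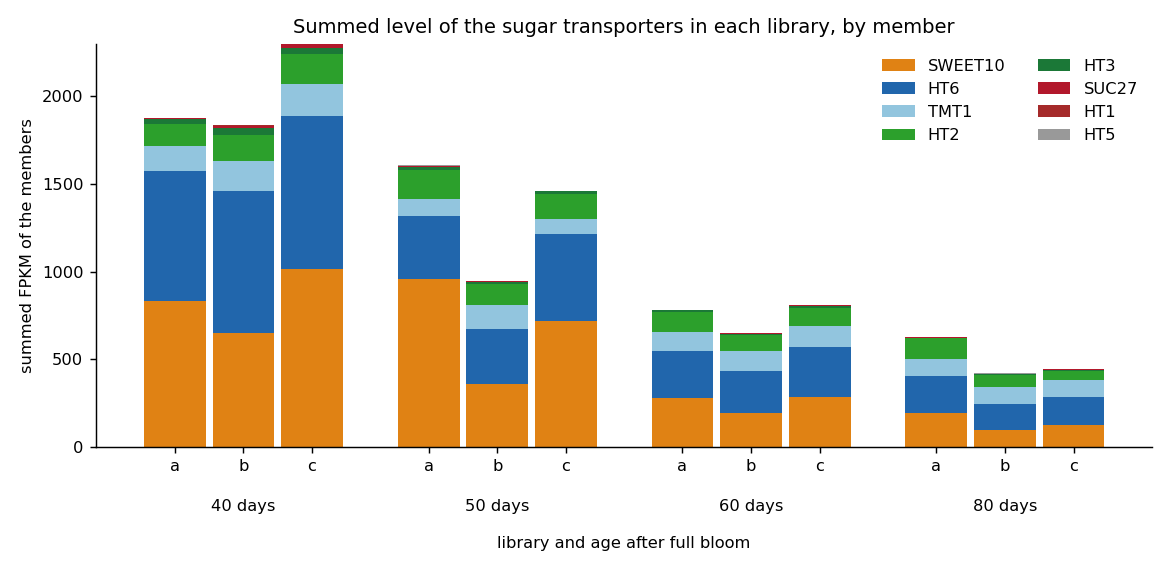
Summed FPKM of the 8 transporters in each library, stacked by member, with libraries a, b and c grouped by age in days after full bloom. The sum lies between 418 and 626 FPKM at 80 days, against 1838 to 2299 FPKM at 40 days, and 50-day library b (946 FPKM) is the lowest of its age.

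The course of HT3, the member with the most negative difference between 80 and 40 days, was set beside those of 8369 other gene models whose mean reached 10 FPKM. No member had a positive difference, so this was done for HT3 alone. The highest Pearson correlation on log2(FPKM + 1) over the 12 libraries, which share their ages, was that of VIT_19s0027g00200 (r = 0.992). Its means were 199 ± 54.6, 54.4 ± 17.6, 24.8 ± 14.6 and 5.46 ± 0.247 FPKM (SD, n = 3) at 40, 50, 60 and 80 days. The next was VIT_12s0059g00500 (r = 0.988), with 564 ± 123, 181 ± 27.6, 102 ± 52.2 and 25.9 ± 4.24 FPKM at the same ages. Neither identifier is paired with a name in the sources used here. Among the transporters above this level, HT6 had r = 0.958 with HT3, SWEET10 0.904, TMT1 0.734 and HT2 0.734. A correlation of at least 0.95 with HT3 was found in 165 gene models.

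Over the whole table, libraries held between 13166 and 14326 gene models at 1 FPKM or more. Correlations of log2(FPKM + 1) across gene models were 0.977 to 0.984 within an age and 0.846 to 0.973 between ages. Along the first principal component the ages followed each other without overlap, and 60-day library c (score 10.6) stood nearest to the 50-day libraries (-16.1 to -4.95). The table gives no counts, so the depth behind each value is unknown, and its part in the spread of HT1, HT5 and SUC27 was not tested.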

How the data were processed

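The authors deposited 1 table of FPKM values with 22580 identifiers and 12 libraries, whose columns carry the codes that the labels give as sample descriptions. Trimmomatic 0.36, FastQC, TopHat2, Cufflinks and edgeR are named in the submitters' processing notes, without their roles. The genome build is not given in the sources used here. The members and lists were chosen with earlier results of these data known. None of the 10 listed identifiers matched the RefSeq gene table of assembly ASM3070453v1, so no coordinates or sequences are given, and the planned list of other sugar genes by product name was not used. That table gives TMT1 as a synonym of HT6 and HT3 as one of HT7, so names can differ between sources.

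Values were transformed to log2(FPKM + 1). The 14579 gene models with at least 1 FPKM in at least 3 libraries were fitted with limma 3.58.1 (R 4.3.3), with 1 mean per age, a trended prior variance and Benjamini-Hochberg adjustment over all of them. Such differences understate the change of low genes. The fit was checked on simulated data. Ratios of values under 0.5 FPKM in 66 pairs of libraries showed no steps of whole reads (fullest bin at most 2.43%), so no count test was run. All members are described, with the 2 gene models most correlated with the member of most negative difference. Alternatives changed the pseudocount, filter, scaling, minimum difference, block, prior and libraries fitted.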

Additional observations from a re-analysis of the deposited data

How the results depend on the processing

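The falls of HT3, HT6 and SWEET10 at 80 against 40 days were called under every alternative and without each library of those ages. So were those of HT3 at 50 against 40 and at 80 against 60 days. For each comparison, only libraries of the ages compared were left out in turn. The 10 differences of single members that were called gave 159 values under the alternatives, of which 137 stayed called and 22 did not. The 18 that were not called gave 285, of which 9 were called. No called value changed sign, and 11 values called in neither setting did. Member counts below are over all tested (7 in the main fit), not the 6 counted above. They include HT1, which passed the filter only through 40- and 50-day libraries. Percentages beside the counts are gene models called in either direction. At 60 against 50 days, the members called went from 1 (3.68% of gene models) to 0 with no filter on low values (2.11%) and with only the ages compared (3.53%). They went to 2 with no minimum difference (15.6%). At 80 against 60 days, they went from 1 (3.6%) to 2 with no minimum difference (20.5%). They also went to 2 with rescaling after removal of the 10 gene models of highest level (4.08%), which moved the median of all gene models to -0.13. At 80 against 40 days, they went from 5 (20.98%) to 3 with quantile normalization (20.1%), which moved that median to 0.11. They went to 7 with no minimum difference (60.8%). They went to 4 with a pseudocount of 0.1 (25.4%), no filter (14.5%), a prior without trend (20.9%) and only the ages compared (20.8%), each losing SUC27. They also went to 4 with the filter set to a mean level of 5 FPKM (19.5%), which leaves HT1 untested. The cause was not tested, apart from the looser rule without a minimum difference. Without each replicate in turn, the members called numbered 1 to 4 at 50 against 40 days (6.94% to 9.15%). The 1 was without 50-day replicate b, and the 4 was without 40-day replicate a and included HT1. They numbered 0 to 1 at 60 against 50 days (2.22% to 4.44%) and 1 at 80 against 60 days (2.30% to 4.03%). They numbered 3 to 6 at 80 against 40 days (19.7% to 21.9%), with 3 without 40-day replicate b. At any age, with each of the 12 libraries left out in turn, they numbered 3 to 6 (22.8% to 25.3%). Both counts of 6 included HT1 as well. A replicate block by letter gave 3 (7.87%), 1 (3.51%), 1 (3.57%) and 5 members (20.97%) in the 4 comparisons, in number as without it. It gave 4 (24.1%) at any age, with SUC27 in place of HT1. Over all gene models tested, the letters showed no clear pairing: deviations of libraries sharing a letter correlated from -0.298 to 0.249, over 0.1 in 4 of 18 pairs. The best partner had the same letter in 13 of 36 cases. Single members could differ, as SWEET10 was lowest in library b at every age. Depth is unknown, so counting error of the weakly expressed members cannot be separated from other spread.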
